A study of Mus musculus with 11 samples.

Results

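Prostaglandin E2 is a short-lived lipid signal, and the genes described here are those for its receptors and for the enzymes that make and break it down. The list was Ptger1, Ptger2, Ptger3, Ptger4, Ptgs1, Ptgs2, Ptges and Hpgd, and for each gene the probe set with exactly 1 gene symbol and the highest mean over all 11 arrays was taken, so the probe sets were selected on their mean level. Of these 8 genes, 6 had such a probe set among the 22180 genes measured in this way. Each of the 6 had 1 probe set, so no choice between probe sets arose. Ptger1 and Ptgs1 were not analysed here. The list itself was chosen by an earlier result of these arrays, the lower Ptger2 level in Ly-6D- progenitors after CpG, so Ptger2 values of that comparison are given as a description and support nothing further. The same holds for Ptger2 in every other comparison that contains Ly-6D- arrays, since they reuse the arrays of that result, and no p is given for it there. On GRCm38.p6, Ptger2 lies on chromosome 14 (44988111 to 45003820), Ptger3 on chromosome 3 (157566821 to 157644758) and Ptger4 on chromosome 15 (5233399 to 5244187). Ptgs2 lies on chromosome 1 (150100031 to 150108234), Ptges on chromosome 2 (30889471 to 30931020) and Hpgd on chromosome 8 (56294552 to 56321046).

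The cells were lymphocyte precursors of the marrow, called common lymphoid progenitors or CLPs, sorted from C57BL/6 mice. Mice had received 50 µg of CpG1826, an unmethylated DNA oligonucleotide that activates Toll-like receptor 9, or PBS alone, every other day, and marrow was taken on day 10. CLPs were split by Ly-6D, a surface protein that appears as they turn towards the B lineage. The groups were Ly-6D+ CLPs after CpG (3 arrays), Ly-6D+ CLPs after PBS (2 arrays), Ly-6D- CLPs after CpG (3 arrays) and Ly-6D- CLPs after PBS (3 arrays). All mice were of the same strain, and the labels name no transgene or deletion. The labels do not tell whether an array stands for 1 animal or a pool, nor whether both populations came from the same animals, so each p-value measures only the spread between these arrays. The comparisons share groups: each PBS or CpG group enters a treatment comparison and a population comparison.

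Prostaglandin E2 is made in steps. A phospholipase frees arachidonic acid, a cyclooxygenase (Ptgs1 or Ptgs2) turns it into an unstable intermediate, and a terminal synthase such as Ptges finishes it, while Hpgd inactivates the product. The receptors differ in what they do to cyclic AMP: those encoded by Ptger2 and Ptger4 (EP2 and EP4) couple to Gs and raise it, the one encoded by Ptger3 (EP3) mainly couples to Gi and lowers it, and the one encoded by Ptger1 (EP1) raises calcium. In blood formation, prostaglandin E2 is best known for expanding stem and progenitor cells in zebrafish and mouse.

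The 250 bases before 1 RefSeq transcript start of each of the 3 measured receptor genes are printed below, because they show what kind of promoter each has. The windows are from RefSeq on GRCm38.p6 and were matched by symbol for all 6 genes. The transcript start used is the outer end of the gene span given above for 4 genes, but lies 55 bases inside it for Ptger3 and 27723 bases inside it for Ptges. They lie at chr14:44987861-44988110 on the + strand for Ptger2, chr3:157566626-157566875 on the + strand for Ptger3 and chr15:5244188-5244437 on the - strand for Ptger4. They run 5′ to 3′ towards that transcript start, and capitals mark E-boxes (CANNTG), the motif of the E proteins that drive early B-cell development.
Ptger2: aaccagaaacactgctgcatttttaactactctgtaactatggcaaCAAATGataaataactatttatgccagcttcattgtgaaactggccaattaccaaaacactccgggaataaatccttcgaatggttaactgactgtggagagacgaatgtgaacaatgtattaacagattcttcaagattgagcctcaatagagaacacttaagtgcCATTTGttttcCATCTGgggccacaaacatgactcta
Ptger3: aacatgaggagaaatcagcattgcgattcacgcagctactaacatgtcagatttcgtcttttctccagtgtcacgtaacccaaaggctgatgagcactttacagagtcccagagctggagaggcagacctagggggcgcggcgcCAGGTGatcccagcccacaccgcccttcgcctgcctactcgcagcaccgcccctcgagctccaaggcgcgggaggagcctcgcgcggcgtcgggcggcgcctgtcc
Ptger4: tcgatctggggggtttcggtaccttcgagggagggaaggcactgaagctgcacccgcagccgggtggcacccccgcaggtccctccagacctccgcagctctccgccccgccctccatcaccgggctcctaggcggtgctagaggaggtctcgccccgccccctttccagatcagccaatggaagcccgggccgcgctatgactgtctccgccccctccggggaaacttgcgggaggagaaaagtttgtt
The Ptger2 window held 3 CG dinucleotides and was 38.0% G or C. The Ptger3 window held 21 and was 62.0% G or C, and the Ptger4 window held 19 and was 66.8% G or C. The median over 32851 RefSeq windows of the same length was 6 CG dinucleotides, so Ptger2 had fewer than most windows and the other 2 receptors had more. On either strand, Ptger2 had 3 E-boxes, Ptger3 had 1 and Ptger4 had 0, and 66.2% of all windows held at least 1. A further 4 motifs were searched on both strands and none was found in the windows of the 6 genes. They were the cyclic AMP response half-site TGACG (in 17.8% of all windows), the interferon-gamma-activated site TTCNNNGAA (7.02%), the interferon-stimulated response element, taken as GAAA followed after 2 bases by another GAAA (2.98%), and an EBF1 palindrome, taken as TCCC followed after 2 bases by GGGA (0.779%). None of the motifs overlapped in these windows, and a missing match says only that these letters are not in the 250 bases.

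Levels are log2 values as deposited, normalised across arrays by the authors, so 1 unit is a doubling. The array medians lay between 3.85 and 3.96, and arrays of 1 group correlated over all probe sets at 0.978 to 0.982, those of different groups at 0.973 to 0.981. The number of arrays limits the precision. Ly6d, the gene of the sorted protein, averaged 12.57 and 12.58 in Ly-6D+ CLPs after CpG and PBS, against 7.72 and 8.23 in Ly-6D- CLPs. Of the other lymphoid progenitor markers, Flt3 had group means of 10.54 to 10.84 and Dntt of 12.01 to 12.30, while Il7r (9.25 to 10.74), Rag2 (8.85 to 9.85) and Kit (8.23 to 9.31) varied more. Between the populations on average, Il7r and Rag2 were higher and Kit lower in Ly-6D+ CLPs past the test described below. Ly6d was higher too, but the sort on its protein set that in advance. Changes were fitted over all 22180 genes in 1 limma model, with p-values adjusted by Benjamini-Hochberg and the threshold set at 0.05. In bulk samples such as these, fewer cells of a type and less RNA per cell cannot be told apart.

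Ptger2, the gene of the EP2 receptor, was highest in Ly-6D- CLPs from PBS-treated mice and lower in each of the other 3 groups. In Ly-6D- CLPs its level was 6.83, 7.02 and 6.78 after CpG, against 7.94, 7.89 and 7.82 after PBS. No array of one treatment reached the range of the other. In Ly-6D+ CLPs it was 6.48, 6.63 and 6.80 after CpG, against 7.05 and 7.05 after PBS, again without overlap. Of all genes, 7.2% were lower without overlap in the Ly-6D- comparison and 9.76% in the Ly-6D+ comparison of 3 against 2 arrays. The 3 Ly-6D- PBS arrays stood above all others, and the Ly-6D- CpG arrays lay just below the Ly-6D+ PBS arrays.

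Among Ly-6D- CLPs the Ptger2 means were 6.88 ± 0.13 after CpG and 7.88 ± 0.06 after PBS (SD, n = 3 each), a level 2.01-fold lower after CpG (-1.01 on the log2 scale, SE 0.11). Of the 6 genes, 1 was lower past the test and 0 higher, where 0.546% of all genes passed, 0.302% higher and 0.243% lower. Since this comparison chose the list, nothing is read from that count. Ptger2 changed by -0.41 on the log2 scale in the Ly-6D+ cells (SE 0.12, 95% interval -0.68 to -0.15), which did not pass (limma adjusted p = 0.479). There 0 of the 6 genes passed, as did 0.0271% of all genes. Ptger2 was the 1 gene of the 6 with an unadjusted p under 0.05, beside 1443 of all 22180 genes. With a variance trend and robust estimation the count in Ly-6D+ CLPs was also 0. Averaged over both populations Ptger2 was 1.64-fold lower after CpG (log2 change -0.71, SE 0.08), an average that includes the arrays that chose the list. In that average 1 of the 6 genes, Ptger2, was past the threshold, where 0.482% of all genes passed, 0.28% higher and 0.203% lower, and nothing is read from it.

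The CpG effects were also set against each other. The difference of the CpG effects on Ptger2, Ly-6D+ minus Ly-6D-, was 0.59 on the log2 scale (SE 0.16). That value is a description, since the difference contains the arrays that chose the list. By limma, 0 of the 6 genes and 0% of all genes passed for this difference, although 1413 of the 22180 genes had an unadjusted p under 0.05. A variance trend with robust estimation also passed 0 genes.

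The Ptger2 change in Ly-6D- CLPs lay between -1.08 and -0.96 whichever array was left out. Its average over both populations lay between -0.75 and -0.67. In a fit to the 6 Ly-6D- arrays alone, the Ly-6D- change was not past the threshold. All these fits reuse the arrays that chose the list, so they are descriptions and support nothing further.

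Marker lists moved in the same comparison. The mean level of 12 granulocyte and monocyte markers was 9.41 to 9.83 in Ly-6D- CLPs after CpG, against 9.11 to 9.32 after PBS, and 2 of the 12, the chemokine receptor Ccr2 and the coagulation factor gene F13a1, rose past the test. The mean over 6 measured lymphoid progenitor markers was 9.42 to 9.76 after CpG, against 10.04 to 10.07 after PBS, and Il7r and Rag2 fell past the test. The B-lineage list (6 measured) was 4.90 to 5.13 after CpG, against 5.47 to 5.54 after PBS. The conventional dendritic list (5 measured) was 4.95 to 5.23 after CpG, against 4.76 to 4.77 after PBS, and the mature B and plasma list (6 measured) 4.56 to 4.68, against 4.46 to 4.54. These 3 lists did not overlap between treatments either, and 0 of their genes passed by limma. The part of these lists in the lower Ptger2 level was not tested.

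**Figure D1:**
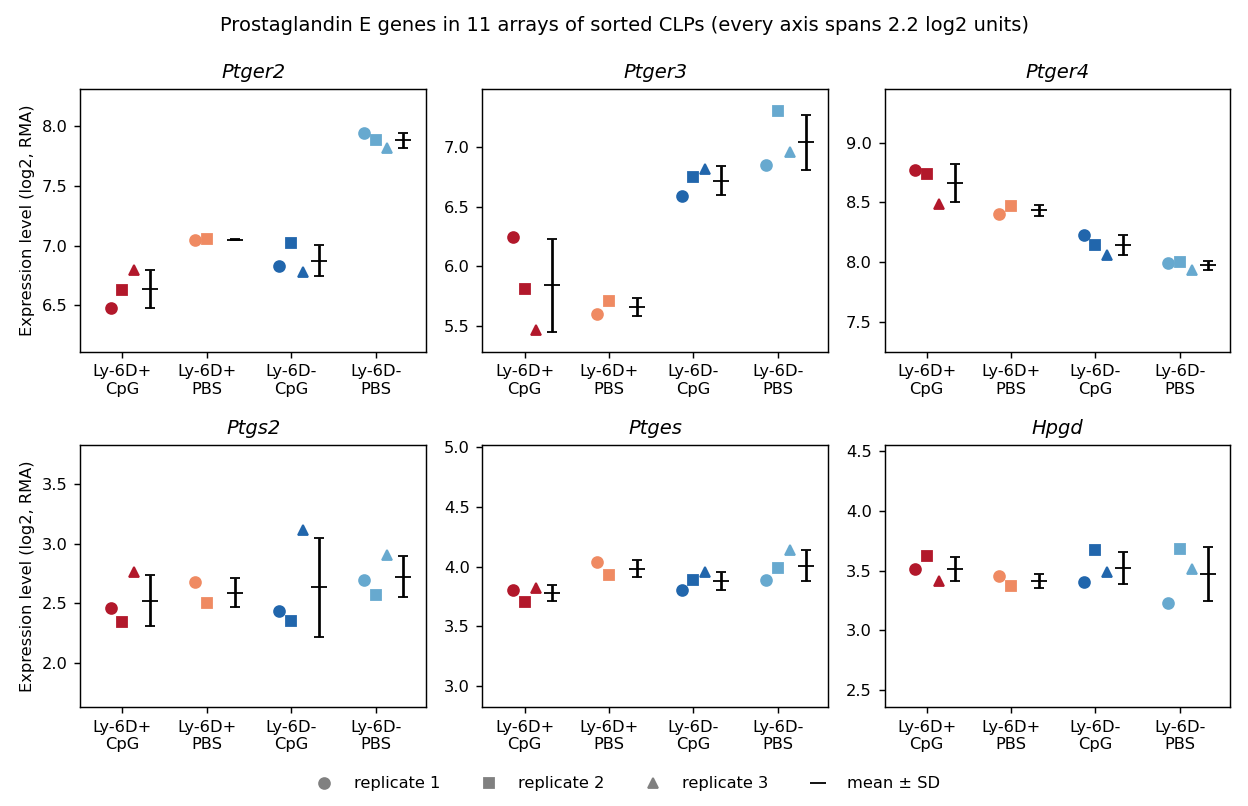
Level of each gene in every array, in log2 units on axes of equal span, for Ly-6D+ CLPs after CpG and after PBS and Ly-6D- CLPs after CpG and after PBS. Symbols are replicates and the black bars are the mean ± SD of a group. The 3 Ly-6D- PBS arrays stand above all others for Ptger2, the Ly-6D+ arrays lie below the Ly-6D- arrays for Ptger3 and above them for Ptger4, and Ptgs2, Ptges and Hpgd overlap between the populations.

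Ptger3, the gene of the Gi-coupled EP3 receptor, separated the populations more than the treatments. After PBS its level was 5.60 and 5.71 in Ly-6D+ CLPs, against 6.85, 7.30 and 6.96 in Ly-6D- CLPs. After CpG it was 6.25, 5.81 and 5.47 in Ly-6D+ CLPs, against 6.59, 6.75 and 6.82 in Ly-6D- CLPs. Every Ly-6D+ array was below every Ly-6D- array, and such a lack of overlap in the downward direction was seen for 14% of all genes after PBS and 9.04% after CpG. Within the groups, the Ly-6D+ CpG arrays were the most spread out (SD 0.39, n = 3).

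Ptger3 was 2.61-fold lower in Ly-6D+ CLPs after PBS (log2 difference -1.38, SE 0.21, limma adjusted p = 0.00602) and 1.84-fold lower after CpG (-0.88, SE 0.18, limma adjusted p = 0.0370). Averaged over both treatments it was 2.19-fold lower (-1.13, SE 0.14, limma adjusted p = 8.32e-04). CpG changed it by -0.32 in Ly-6D- CLPs (95% interval -0.73 to 0.09) and 0.18 in Ly-6D+ CLPs (-0.27 to 0.64), and neither passed. The 3 Ly-6D- CpG arrays lay below the 3 Ly-6D- PBS arrays without overlap, which was so in the downward direction for 7.2% of all genes.

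Ptger4, the gene of the EP4 receptor, was higher in Ly-6D+ CLPs, opposite to the other 2 receptors. After PBS its level was 8.40 and 8.47 in Ly-6D+ CLPs, against 7.99, 8.0 and 7.93 in Ly-6D- CLPs. After CpG it was 8.77, 8.74 and 8.48 in Ly-6D+ CLPs, against 8.23, 8.14 and 8.06 in Ly-6D- CLPs. The 4 groups did not overlap, and the order from high to low was Ly-6D+ CpG, Ly-6D+ PBS, Ly-6D- CpG and Ly-6D- PBS. The gaps between treatments were narrow. The lowest Ly-6D+ CpG array was at 8.482 and the highest Ly-6D+ PBS array at 8.467, and in Ly-6D- CLPs these were 8.058 and 7.996. The share of all genes with all 4 groups apart was not computed, and shares for pairs of groups are given below.

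Neighbours of the same population in that order did not differ past the test. CpG moved Ptger4 by 0.23 in Ly-6D+ CLPs (SE 0.11, limma adjusted p = 0.800) and by 0.17 in Ly-6D- CLPs (SE 0.10, limma adjusted p = 0.554). Arrays without overlap in the upward direction were seen for 10.7% and 8.5% of all genes in these comparisons. Upward separation of the populations was seen for 12.9% of all genes after PBS and 7.89% after CpG. The Ptger4 population difference was 0.46 after PBS (SE 0.11, limma adjusted p = 0.0698, not past the test) and 0.52 after CpG (SE 0.10, limma adjusted p = 0.0218), a 1.44-fold higher level in Ly-6D+ CLPs. Averaged over both treatments it was 0.49 (SE 0.07, limma adjusted p = 0.00340), or 1.41-fold.

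Ptger2 also had a lower mean in Ly-6D+ than in Ly-6D- CLPs. It was 1.78-fold lower in Ly-6D+ CLPs after PBS (log2 difference -0.83, SE 0.12), while after CpG the arrays overlapped and the log2 difference was -0.24 (SE 0.11). Its average over both treatments was -0.54 (SE 0.08). These are descriptions, because the Ly-6D- arrays are those that chose the list.

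Of the 6 genes, 2 were lower and 0 higher in Ly-6D+ CLPs after PBS, where 1.98% of all genes passed, 1.18% higher and 0.798% lower. After CpG, 1 was lower and 1 higher, where 2.14% of all genes passed, 1.2% higher and 0.938% lower. Averaged over both treatments, 2 were lower and 1 higher, where 4.59% of all genes passed, 2.37% higher and 2.22% lower, and these 3 were the 3 receptors. Ptger2 is 1 of those lower after PBS and on average, and its place in these counts reuses the arrays that chose the list. With Ly-6D+ PBS replicate 1 left out, which leaves 1 array in that group, the PBS comparison kept 0 of the 6 genes (Ptger3 limma adjusted p = 0.0732). After CpG, Ptger3 did not pass without Ly-6D+ CpG replicate 2 or 3, either Ly-6D+ PBS array, any Ly-6D- CpG array or Ly-6D- PBS replicate 3, with limma adjusted p up to 0.130. Ptger4 did not pass there without replicate 1 or 2 of Ly-6D+ CpG, or without replicate 2 or 3 of Ly-6D- CpG, with limma adjusted p up to 0.0944. The averages over both treatments passed for Ptger3 and Ptger4 whichever array was left out, with limma adjusted p of 2.82e-04 to 0.0221.

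Markers of other cell types differed between the populations too. The mean of 6 mast cell and basophil markers, cells in which EP3 is well known, was 4.54 to 4.84 and 4.26 to 4.34 in Ly-6D+ CLPs after CpG and PBS, against 5.08 to 5.44 and 5.41 to 5.67 in Ly-6D- CLPs. Cpa3, Gata2 and Mcpt8 were lower in Ly-6D+ CLPs past the test on the average over both treatments, while Prss34, Fcer1a and Ms4a2 did not pass. Prss34 averaged 6.68 in Ly-6D+ against 5.99 in Ly-6D- CLPs after CpG, but 6.01 against 6.97 after PBS. Fcer1a (group means of 2.06 to 2.29) and Ms4a2 (3.14 to 3.37) were dim, beside a median level of 4.33 over all genes. The mean of 12 granulocyte and monocyte markers was 8.63 to 8.86 and 8.35 to 8.81 in Ly-6D+ CLPs, against 9.41 to 9.83 and 9.11 to 9.32 in Ly-6D- CLPs, with 6 of the 12 lower past the test. The mean of 7 plasmacytoid dendritic cell markers ran the other way, at 8.19 to 8.40 and 8.04 to 8.36 in Ly-6D+ CLPs, against 6.60 to 6.79 and 6.54 to 6.73 in Ly-6D- CLPs, with 6 of the 7 higher past the test. The B-lineage markers did so as well, with 5 of 6 higher in Ly-6D+ CLPs, as did 2 of 6 mature B and plasma markers. Of the conventional dendritic list 1 of 5 was higher and 1 lower, 1 of 4 megakaryocyte markers was lower, and 1 of 5 T-cell and 1 of 6 stromal and endothelial markers were higher. The part of any of these lists in the receptor differences was not tested.

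**Figure D2:**
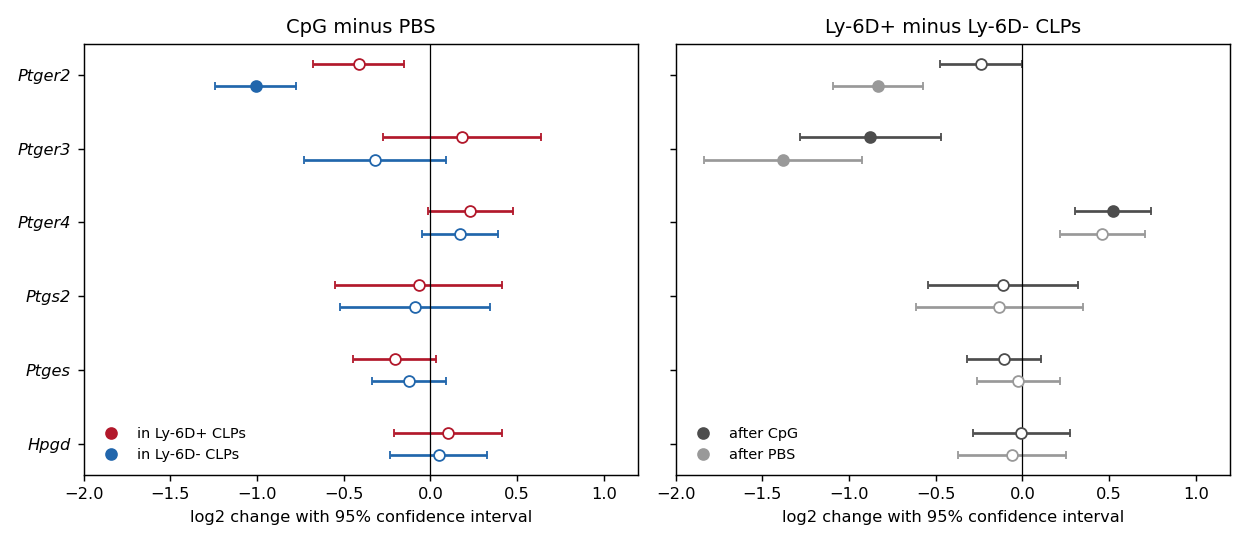
Fitted log2 change of each gene with its 95% interval, for CpG minus PBS in Ly-6D+ and Ly-6D- CLPs (left) and for Ly-6D+ minus Ly-6D- CLPs after CpG and after PBS (right). Filled points passed at an adjusted p below 0.05. Ptger2 in Ly-6D- CLPs is the 1 filled point on the left, at -1.01, and that comparison chose the list. Nothing is read from the filled points of Ptger2 in either panel, since they use the arrays that chose the list. On the right Ptger3 lies below 0 and Ptger4 above 0 after either treatment.

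The 3 measured enzyme genes had mean signals below the middle of all genes. Ptgs2, the inducible cyclooxygenase, lay between 2.35 and 3.11 in all 11 arrays, and 18.5% of genes had a lower mean signal. Ptges, the inducible terminal synthase, lay between 3.70 and 4.14, and Hpgd, the dehydrogenase that inactivates prostaglandin E2, lay between 3.23 and 3.68. Probe sets differ in how brightly they respond, and no detection call entered the fit, so whether these 3 signals exceed background is unknown.

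None of the 3 enzyme genes passed in any of the 7 comparisons. Ptgs2 was 2.44, 2.35 and 3.11 in Ly-6D- CLPs after CpG, against 2.70, 2.57 and 2.91 after PBS, so its lowest and highest values in the Ly-6D- population were both in CpG arrays. Its CpG change was -0.09 in Ly-6D- CLPs (95% interval -0.52 to 0.34) and -0.07 in Ly-6D+ CLPs (-0.55 to 0.41). A p that misses the threshold does not show that the level was the same.

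Ptges had the smallest SD of the 6 genes over the 11 arrays (0.124). It was 3.81, 3.70 and 3.82 in Ly-6D+ CLPs after CpG, against 4.04 and 3.93 after PBS, without overlap, as for 9.76% of all genes in that direction. In Ly-6D- CLPs it was 3.81, 3.89 and 3.96 after CpG, against 3.89, 3.99 and 4.14 after PBS, with overlap. The average CpG effect was -0.17 (SE 0.07, unadjusted p = 0.0435, limma adjusted p = 0.419) and did not pass.

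Hpgd was 3.41, 3.67 and 3.49 in Ly-6D- CLPs after CpG, against 3.23, 3.68 and 3.51 after PBS, and the groups overlapped. Its average CpG effect was 0.08 (95% interval -0.13 to 0.28) and its average population difference was -0.03 (-0.24 to 0.17).

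The rest of the pathway was described with 9 gene lists, 81 measured genes in all. After CpG, 0 of the 81 passed in either population or on their average, by limma and with 0.546%, 0.0271% and 0.482% of all genes passing. Their median log2 change was -0.07 among the Ly-6D- cells and -0.05 among the Ly-6D+ cells, against 0.00 over all genes in both. Between the populations, 13 of the 81 passed on the average over both treatments, 5 higher and 8 lower in Ly-6D+ CLPs. That is 16.0% of the 81, beside 4.59% of all genes (2.37% higher and 2.22% lower), with a median of -0.05 against 0.00 over all genes.

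Of 10 phospholipase A2 genes 2 were lower, Pla2g4a, which frees arachidonic acid (log2 difference -0.42, limma adjusted p = 0.0136), and the lysosomal Pla2g15 (-0.44). Of 9 other prostanoid synthases 1 was lower, Tbxas1, which makes thromboxane. Its level was 4.23, 4.33 and 4.27 in Ly-6D+ CLPs after CpG, against 5.30, 5.81 and 6.13 in Ly-6D- CLPs, and 4.17 and 4.19 after PBS, against 5.91, 6.09 and 6.25. The average Tbxas1 difference was -1.68 (SE 0.13, limma adjusted p = 3.95e-05), further from 0 than that of any receptor above.

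Slco3a1, an organic anion transporter that carries prostaglandins, was the 1 of 5 transport and reduction genes that passed, at -1.12 (SE 0.10, limma adjusted p = 8.26e-05). In the leukotriene branch 1 of 10 passed, Ltc4s, the synthase of leukotriene C4 (-1.41, SE 0.20, limma adjusted p = 0.00219). Among 4 other prostanoid receptors, the thromboxane receptor gene Tbxa2r was higher (0.44, SE 0.11, limma adjusted p = 0.0467) and the prostaglandin D2 receptor gene Ptgdr lower (-0.36, SE 0.09, limma adjusted p = 0.0484). Tbxas1 and Tbxa2r, the synthase and the receptor of thromboxane, thus differed in opposite directions on the average over both treatments. The Tbxa2r difference was 0.72 after CpG (limma adjusted p = 0.0279) but 0.15 after PBS (limma adjusted p = 0.811, not past the test). Values that did not pass were the average CpG changes of the synthase genes Akr1c18 (0.27) and Cbr1 (-0.26), the CpG change of Ptgr1, a prostaglandin reductase, in Ly-6D- CLPs (0.76), and the average population difference of Ptgir, the prostacyclin receptor gene (-0.33).

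Downstream of the receptors, 0 of 22 cyclic AMP signalling genes passed after CpG. The average CpG change was negative for 17 of them, with a median of -0.13 against 0.00 over all genes. A joint change of these genes was not tested. Between the populations 2 of the 22 were higher in Ly-6D+ CLPs, the phosphodiesterases Pde3b (0.58, limma adjusted p = 0.0190) and Pde7a (0.34, limma adjusted p = 0.0228), which break down cyclic nucleotides. Of 5 receptors listed as other Gs-coupled receptors, Gpr183 (-0.84), the oxysterol receptor, and Gpr65 (-0.57), the proton sensor, were lower. Gpr183 mainly couples to Gi, so it does not belong to the Gs-coupled kind. Gpr183 had a log2 change of 0.98 after CpG in Ly-6D- CLPs that did not pass (limma adjusted p = 0.125). Of 10 genes that respond to CREB, the transcription factor activated by cyclic AMP, 1 was higher, the kinase gene Sik1 (0.85, SE 0.10, limma adjusted p = 6.31e-04). Fos (-0.57) and Pde4b (-0.36) had negative average CpG changes that did not pass. Of 7 Wnt and beta-catenin genes, Lef1, a B-cell progenitor transcription factor, was higher in Ly-6D+ CLPs by 1.63 after CpG and by 2.36 after PBS on the log2 scale (limma adjusted p = 2.18e-04 on the average).

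**Figure D3:**
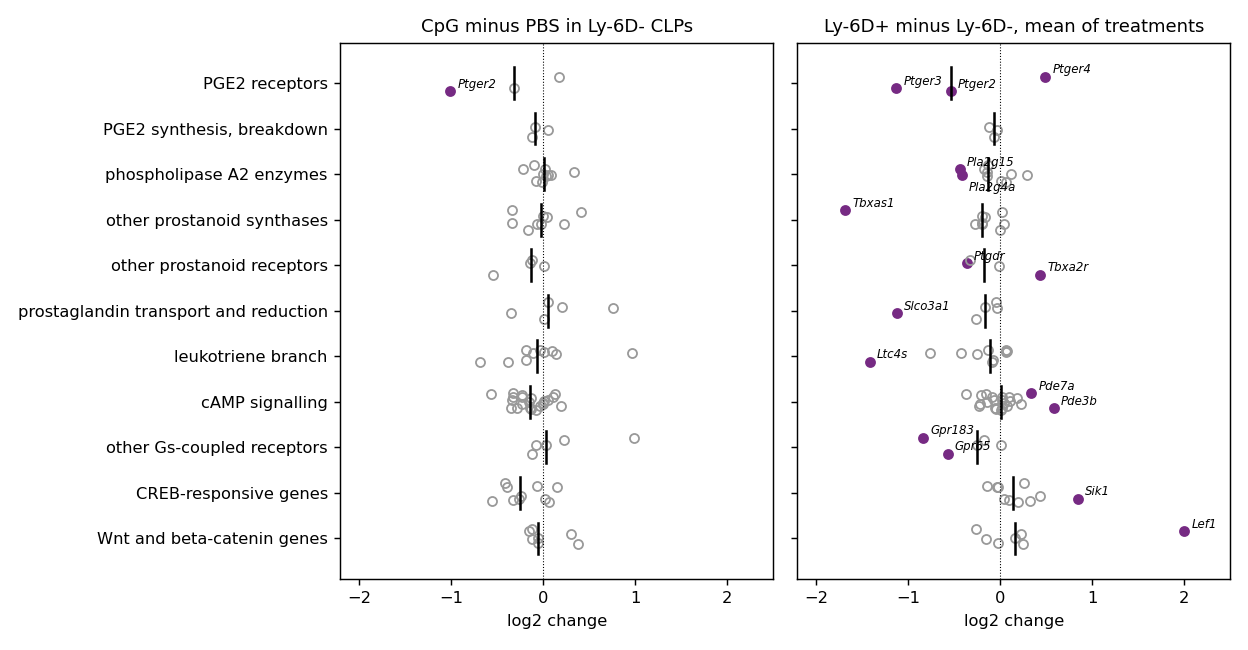
Log2 change of every measured gene of the prostaglandin E lists and the 9 related lists, for CpG minus PBS in Ly-6D- CLPs (left) and for Ly-6D+ minus Ly-6D- CLPs averaged over both treatments (right). Each point is 1 gene, filled and named where its adjusted p was below 0.05, and black bars are list medians. Gpr183, shown with the other Gs-coupled receptors, mainly couples to Gi. On the left Ptger2 is the 1 filled point, and on the right 16 points are filled, the 3 receptors and 13 genes of the related lists. The filled points of Ptger2 use the arrays that chose the list, so nothing is read from them.

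The genes whose level followed each receptor most closely over the 11 arrays were ranked by Pearson r among 2924 genes with an SD of at least 0.3. These are descriptions of 4 groups as much as of 11 arrays, and many genes differ between the populations. Closest to Ptger2 were Zfp532 (r = 0.95), Speer8-ps1 (0.93), Nfat5, the osmotic stress transcription factor (0.92), Crim1 (0.91) and Ppp1r3b (0.91). Zfp532 had the same value, 4.19, in every Ly-6D+ PBS and Ly-6D- CpG array. Speer8-ps1 was dim, with group means of 2.02 to 3.35 against a median level of 4.33 over all genes. Nfat5 averaged 6.38 and 6.54 in Ly-6D+ CLPs after CpG and PBS, and 6.61 and 7.08 in Ly-6D- CLPs after CpG and PBS. Its peak in Ly-6D- PBS arrays follows from the ranking by likeness to Ptger2 and is no separate result. The most opposed were the protein disulfide isomerase Pdia5 (-0.96), Tubd1 (-0.94) and Rexo2 (-0.94).

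Closest to Ptger3 were Stxbp5 (r = 0.96), Wfdc17 (0.96), Car2 (0.95), Cd34 (0.95), the stem and progenitor surface antigen, and Rhobtb3 (0.95). Cd34 averaged 10.35 and 10.01 in Ly-6D+ CLPs after CpG and PBS, against 11.21 and 11.51 in Ly-6D- CLPs. Most opposed to Ptger3 were Plekhm3 (-0.96), E2f2 (-0.96) and Tex2 (-0.96). Closest to Ptger4 were Mpeg1, the macrophage perforin (r = 0.97), the costimulatory receptor Cd28 (0.97), Grhpr (0.97), Pacsin1 (0.96) and Slc9a2 (0.95), and most opposed were Ctla2a (-0.97), Serpinf1 (-0.96) and Otos (-0.96). Pacsin1 is among the plasmacytoid dendritic cell markers used above. Among the receptors themselves, Ptger4 ran against Ptger2 (r = -0.78) and Ptger3 (-0.79), while Ptger2 and Ptger3 ran together (0.61), all over the same 11 arrays.

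**Figure D4:**
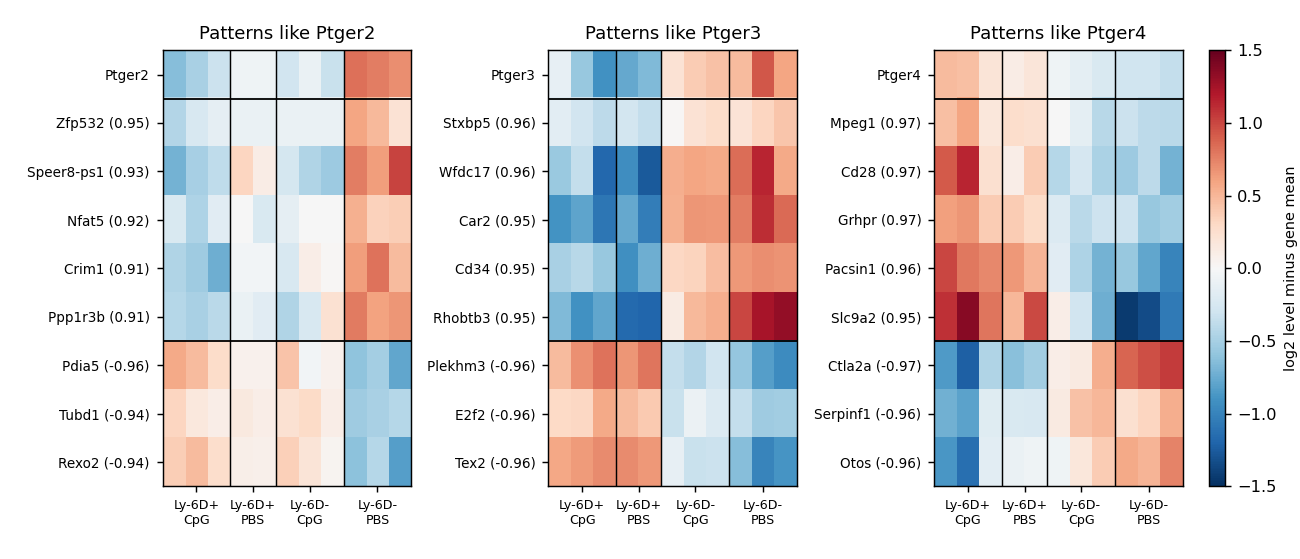
Level minus the gene's mean over the 11 arrays, in log2 units, for Ptger2, Ptger3 and Ptger4 (top row of each panel) with the 5 genes most like and the 3 most opposed to each. Columns are arrays in the order Ly-6D+ CpG, Ly-6D+ PBS, Ly-6D- CpG and Ly-6D- PBS, and Pearson r stands in brackets. The Ptger2 panel changes colour at the Ly-6D- PBS arrays, and the Ptger3 and Ptger4 panels mostly change between the Ly-6D+ and Ly-6D- arrays.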

How the data were processed

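Per the labels, SPIA cDNA was made from 5 ng of RNA per sample with a NuGen kit, and 5 µg of it was labelled with biotin. The authors deposited log2 values. The submitters' processing notes name RMA and Partek without versions or settings. RMA as usually run gives all arrays the same distribution, which removes a change shared by most genes. Of 41345 probe sets, 23521 had exactly 1 symbol in the probe table, and for each of the 22180 genes the brightest one was kept.

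The model had 4 group means and all 11 arrays (limma 3.58.1, R 4.3.3, lmFit with eBayes, 7 residual and 3.48 prior degrees of freedom) and was tested on simulated data. It gave CpG minus PBS and Ly-6D+ minus Ly-6D- within each other group, both averages, and the difference between the CpG effects. SEs are moderated, and means carry the SD between arrays. Alternatives were other centring, filters, variance settings, thresholds, sample sets and replicate blocks, and leaving out each array.

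The genes, lists and tests were chosen with earlier results of these data known. Named genes were every gene of the list with a probe set, pathway genes past the test, up to 2 others a pathway list with the smallest p in an average effect, and the 5 most and 3 least like genes of each receptor. Nfat5 and Cd34 were given group means, and single marker genes named, after their values were seen. No group held enough arrays for a test of outlying arrays.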

Additional observations from a re-analysis of the deposited data

How the results depend on the processing

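The arrays are few, and their number limits what can be shown. Of the 6 genes, 1 passed for CpG in Ly-6D- CLPs, and 0 did with only the groups compared. That gene is Ptger2, as it is for the average CpG effect. Its place in these counts reuses the arrays that chose the list, so nothing is read from it. For the average CpG effect, leaving out each array gave 0 to 1 genes. For Ly-6D+ minus Ly-6D- after PBS, it gave 0 to 3. After CpG, where 2 passed, it gave 0 to 2, and 1 passed with array weights, 1 at a fold of at least 1.5, 1 with the replicate block (Ptger3 adjusted p = 0.0596 by limma) and 0 with only the groups compared. For the average population difference, 1 of 3 reached a fold of 1.5. Fits to only the groups compared could not give averages or the difference of effects, and leaving out the dimmest genes drops Ptgs2.

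Whether the replicate numbers pair the arrays is not in the labels, and the correlations of deviations from group means do not settle it. For arrays of the same treatment they were -0.0065 to 0.176 in 5 same-numbered pairs and -0.127 to 0.0386 in 10 other pairs. For the same population they were -0.0345 to 0.0905 in 5 same-numbered pairs and -0.0912 to 0.0912 in 10 others. For arrays sharing neither they were -0.0286 to 0.130 in 5 same-numbered pairs and -0.0883 to 0.0756 in 10 others. The block changed no other count of the 6 genes.

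Directions of changes that did not pass turned in some settings, and the cause was not tested. With each array centred on its median, the Ptgs2 difference of CpG effects was -0.017 and the Ptges population difference after PBS 0.014. With the replicate block, these were -0.13 and 0.020, and the Ptgs2 population difference after PBS was 0.016. Leaving out each array, Ptgs2 ranged from -0.33 to 0.051 for CpG in Ly-6D- CLPs, -0.19 to 0.021 for CpG in Ly-6D+ CLPs, -0.12 to 0.26 for their difference and -0.25 to 0.13 between the populations after CpG. Hpgd ranged from -0.073 to 0.15 for CpG in Ly-6D- CLPs, -0.049 to 0.18 for the difference of effects, -0.18 to 0.041 between populations after PBS, -0.065 to 0.067 after CpG and -0.096 to 0.017 on average. Ptger3 ranged from -0.019 to 0.37 for CpG in Ly-6D+ CLPs and -0.17 to 0.025 for the average CpG effect, and Ptges from -0.084 to 0.045 between populations after PBS.

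Counts over all genes moved more. For CpG in Ly-6D- CLPs, 121 genes passed, against 4 to 425 over the alternatives and 5 to 309 leaving out an array. In Ly-6D+ CLPs 6 passed, against 0 to 18 and 4 to 16, and on average 107, against 72 to 302 and 6 to 216. Between populations, 439 passed after PBS (190 to 697 and 185 to 416), 474 after CpG (264 to 727 and 264 to 516) and 1018 on average (515 to 1548 and 615 to 955).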
